A study of Mus musculus with 9 samples.

Results

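The S100 calcium-binding proteins were examined here as 10 genes, taken by their symbols in the platform annotation with every probe set that names a single gene. Of the 10, 9 were measured, by 13 probe sets among the 34944 single-gene probe sets and among 18194 genes in all. S100a11 had no single-gene probe set, and no level is given for it. The family was chosen by the expression values of S100a16, which were high in IR, so all comparisons of S100a16 are given as a description without a test. The remaining genes entered by family name, with their results already known.

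Expression was measured on Affymetrix mouse arrays in SCCVII, tumour cells that came from an oral squamous cell carcinoma arisen spontaneously in a mouse. There were 3 groups of 3 arrays. IR was a line recovered from tumours that parental SCCVII cells had formed in stroma irradiated before the injection. NIR was recovered in the same way from stroma that had not been irradiated, and PA was the parental line in standard culture. All groups thus shared the parental cells, and IR and NIR also shared growth as a tumour before the line was made. The labels describe IR tumours as hypoxic, invasive and metastatic, with lines that keep the last 2 traits in normal oxygen, and NIR tumours and lines as poor in both. They call the samples independent but leave unsaid whether the 3 arrays within IR, NIR or PA stand for different tumours or for dishes of 1 line, and the p-values could thus rest on technical variation alone. The comparisons ask what separates IR from NIR, and what separates each from PA.

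S100 proteins are small calcium sensors built around EF-hand loops. Most work as dimers that open a greasy surface when they bind calcium and then grip a partner such as an annexin, a myosin or a protease. Several are also released from cells and act on the receptors RAGE and TLR4. Most of the mouse genes lie in a cluster on chromosome 3, beside the genes of the cornified envelope of the skin.

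The promoters of the genes on which the results turn are shown here, because S100a16 has a pair of annotated starts and because S100a1 and S100a13 are read from a common stretch. Each window runs from 250 bases before the annotated start to 50 bases into the transcript, in the direction of transcription, from RefSeq on build GRCm38.p6. The members' windows were searched for 5 motifs, and capitals mark matches on either strand to TATAAA (the TATA box), CCAAT (the CCAAT box), GGGCGG (the GC box), TGANTCA (a loose form of the AP-1 site, with any base at N) or ACGTG (the core bound by hypoxia-inducible factors).
S100a16 upstream start, chr3:90537004-90537303, plus strand: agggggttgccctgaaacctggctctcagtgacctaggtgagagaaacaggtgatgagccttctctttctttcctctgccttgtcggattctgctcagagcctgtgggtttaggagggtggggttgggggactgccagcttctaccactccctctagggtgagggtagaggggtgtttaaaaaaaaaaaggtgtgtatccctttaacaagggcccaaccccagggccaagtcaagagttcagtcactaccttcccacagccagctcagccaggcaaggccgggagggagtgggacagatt
S100a16 downstream start, chr3:90540896-90541195, plus strand: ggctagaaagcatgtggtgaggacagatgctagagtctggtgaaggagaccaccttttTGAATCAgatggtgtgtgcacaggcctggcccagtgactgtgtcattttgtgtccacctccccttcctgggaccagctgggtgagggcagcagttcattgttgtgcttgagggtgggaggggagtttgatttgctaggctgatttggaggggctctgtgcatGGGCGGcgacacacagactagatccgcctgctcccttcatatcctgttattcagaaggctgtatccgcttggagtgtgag
S100a13, chr3:90514185-90514484, plus strand: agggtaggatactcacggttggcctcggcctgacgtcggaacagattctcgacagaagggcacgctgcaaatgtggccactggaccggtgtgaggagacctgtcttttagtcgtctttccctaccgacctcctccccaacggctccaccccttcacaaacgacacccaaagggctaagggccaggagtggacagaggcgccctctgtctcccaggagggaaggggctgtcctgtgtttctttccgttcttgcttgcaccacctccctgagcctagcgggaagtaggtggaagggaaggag
S100a4, chr3:90603520-90603819, plus strand: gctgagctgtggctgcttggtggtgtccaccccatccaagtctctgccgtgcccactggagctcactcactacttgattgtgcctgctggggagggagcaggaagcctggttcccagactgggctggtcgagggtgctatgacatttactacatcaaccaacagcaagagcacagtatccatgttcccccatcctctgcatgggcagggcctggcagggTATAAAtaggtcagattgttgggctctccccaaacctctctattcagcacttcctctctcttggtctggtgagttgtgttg
The upstream window of S100a16 held none of these letters. Its downstream window held a match to the loose AP-1 pattern, TGAATCA, beginning at base 59 of the 300, and a GC box match at base 221. Neither the S100a13 window nor that of S100a1 held any of the 5 motifs. These 2 windows overlap by 204 bases on opposite strands, and their annotated starts lie 105 bases apart, pointing away from each other. S100a4, shown for contrast as a gene that stayed at a high level, has a TATA box match at base 220. Among the members with a window, S100a8 and S100a9 also held a TATA box match. The hypoxia-inducible factor core was matched in the windows of S100a6 and S100a11, and CCAAT in that of S100a6. GC box matches lay in the windows of S100a9 and S100a11. The AP-1 letters were matched in S100a11 too, for which no level is given. Of 32851 mouse promoter windows of this length, 13.62% held the TATA box letters, 37.41% CCAAT, 35.66% the GC box, 7.81% the AP-1 letters and 19.62% the hypoxia-inducible factor core. Windows were found for 8 of the 10 genes, with 9 windows in all. A match describes letters and is not evidence of a bound site.

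The arrays had medians of 4.45 to 4.52 on the log2 scale, and the median of all probe sets was 4.49. Deposited values are RMA expression values in log2 units, without detection calls, so a value near or below that median is described as low. The simple-epithelial keratin genes differed in level. Krt8 was bright in all groups, at 12.76 ± 0.095 over the IR arrays, 12.72 ± 0.12 over the NIR arrays and 12.67 ± 0.045 over the PA arrays (log2, SD, n = 3 each). Krt18 was bright too, with a mean of 11.6, while Krt19 averaged only 4.90 and Krt7 was low at 3.97. Basal and squamous markers were mixed. Lower than the median of all probe sets were Krt14, at 3.75 ± 0.085 in IR, 3.91 ± 0.13 in NIR and 3.95 ± 0.11 in PA, and Trp63, between 4.15 and 4.38 on all arrays. Krt15 (mean 3.80), Krt17 (3.56) and the epithelial cadherin gene Cdh1 (3.29) were low too. Krt5 lay above that median on every array, between 4.80 and 5.11, as did Krt6a, between 4.96 and 5.26, and Lor, a gene of the cornified envelope, averaged 8.41.

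S100a16, a widely expressed member that promotes fat cell differentiation in cultured mouse cells, was highest in IR, lowest in PA and between them in NIR. Its brighter probe set read 8.91, 8.80 and 8.66 in IR, 8.25, 8.52 and 8.08 in NIR, and 7.71, 7.73 and 7.85 in PA, on the log2 scale for arrays 1 to 3. All IR arrays lay above all NIR arrays, and all NIR arrays above all PA arrays. IR averaged 8.79 ± 0.13, NIR 8.28 ± 0.22 and PA 7.76 ± 0.072 (SD, n = 3 each). The second probe set, whose suffix marks probes that may also bind other transcripts, read 7.96, 8.14 and 7.89 in IR, 7.62, 7.84 and 7.49 in NIR, and 6.87, 7.10 and 6.99 in PA. The groups kept their order there and again did not overlap. Both probe sets had NIR2 as the highest NIR array.

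**Figure D1:**
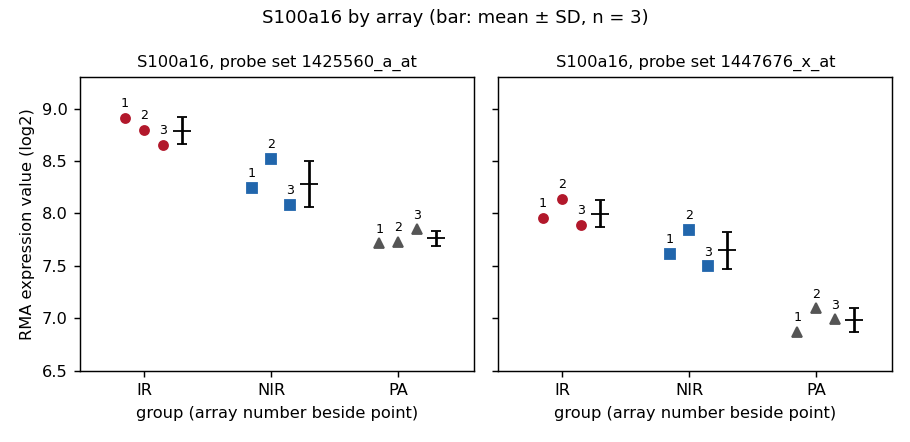
RMA expression values of S100a16 (log2, vertical axis) in each of the 9 arrays, by group (horizontal axis), for both probe sets, with the mean and SD of 3 arrays beside the points. IR lies above NIR and NIR above PA on both, with brighter-probe means of 8.79, 8.28 and 7.76.

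As a description of the values that chose the family, S100a16 was 2.04-fold higher in IR than in PA (log2 difference 1.03, SE 0.11). This was the 16th highest of 18194 gene differences. Against NIR it was 1.42-fold higher in IR (0.51, SE 0.11), at rank 139. With the second probe set the difference was 1.01 against PA and 0.35 against NIR.

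Between NIR and PA S100a16 was 1.43-fold higher in NIR (8.28 against 7.76, log2 difference 0.52, SE 0.11), at rank 74 of the 18194 gene differences. The second probe set gave a larger difference of 0.67 (SE 0.10). Without any single array the difference of the brighter probe set lay between 0.40 and 0.62, the lowest being without NIR2. The NIR and PA arrays are also those against which S100a16 was high in IR, and low PA values favoured both the choice of the family and this difference, so it too is a description with no test.

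Cultures grown from tumours can hold host cells, and in bulk RNA fewer cells of a type and less RNA per cell cannot be told apart. The mean of 20 fibroblast markers was lowest in PA, as was S100a16. This marker mean was 7.58 to 7.63 in IR, 7.39 to 7.65 in NIR and 7.19 to 7.30 in PA. NIR2 was its highest array, so IR and NIR overlapped, unlike in S100a16. Against PA, 17 of the 20 had positive differences in IR and 17 in NIR, where 51.9% and 51.6% of all genes were positive. In IR 3 rose, Col6a3 (1.58), Dcn (1.24) and Col6a1 (1.03), and in NIR 3 rose, Col6a3 (1.06), Dcn (0.81) and Lum (1.29). Of all genes 0.297% rose in IR against PA and 0.379% in NIR against PA, with 1.06% and 1.3% called in either direction. Between IR and NIR Col6a3 rose (0.52) and Pdpn fell in IR (-0.41), where 0.786% of all genes rose and 0.863% fell. Of the 20 markers 17 averaged above the median of all probe sets. Some were bright in the parental culture too, and so were not particular to cultures from tumours. In PA Col1a2 averaged 11.28, Col3a1 11.25 and Pdgfra 9.15, while Postn (4.32) and Thy1 (3.71) were low. The mean of 20 macrophage markers lay between 4.68 and 5.15 in IR, between 4.60 and 4.72 in NIR and between 4.38 and 4.48 in PA, with IR3 highest. Its called members were Lyz1 in IR (difference from PA 3.55), and Lyz1 (2.30) and Mrc1 (0.75) in NIR. Of the 20 markers 11 averaged above the median of all probe sets. In IR against PA 17 of the 20 had positive differences and 9 reached an unadjusted p under 0.05 in limma, where 8.59% of all genes did. Against NIR 15 of the 20 had positive differences in IR, where 50.5% of all genes were positive. None of the 20 passed there, where 1.65% of all genes did. Lyz1 and Lyz2 were highest in IR3, at 8.30 and 8.25. Cd68 (5.83), Tyrobp (5.39) and Fcgr3 (4.54) were highest in IR3 too, while Mrc1 was highest in NIR1 (5.57). The macrophage gene Adgre1 (3.75 to 4.05) and the leukocyte gene Ptprc (3.49 to 3.88) were low on all arrays. IR3 had the lowest S100a16 value of the IR arrays on both probe sets, and without IR3 the S100a16 difference was 1.09 against PA and 0.57 against NIR. The part of fibroblast or macrophage RNA in the S100a16 result was not tested.

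S100a1 and S100a13 are the neighbours that share a promoter stretch. S100a1 is best known in heart and skeletal muscle, where it binds the ryanodine receptor and the calcium pump, and S100a13 takes part in the release of FGF1 and interleukin 1 alpha, which lack a signal peptide. S100a1 read 9.16, 9.13 and 9.27 in IR, 8.72, 8.99 and 9.13 in NIR, and 8.84, 8.85 and 8.86 in PA. The IR arrays lay above the others, but the lowest IR and the highest NIR array differed only beyond the printed digits. Its second probe set separated them more clearly, with 8.03, 7.97 and 8.10 in IR, 7.57, 7.72 and 7.79 in NIR, and 7.71, 7.68 and 7.70 in PA. S100a13 read 8.24, 8.20 and 8.38 in IR, 7.94, 8.09 and 8.02 in NIR, and 8.02, 8.02 and 8.09 in PA. Here too every IR array lay above every NIR and PA array, while NIR and PA overlapped. In both genes IR3 was the highest of the 9 arrays and NIR1 the lowest.

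Neither gene passed. S100a1 differed by 0.33 between IR and PA (SE 0.097, 95% interval 0.12 to 0.55, limma adjusted p = 0.201) and by 0.24 between IR and NIR (0.028 to 0.45, adjusted p = 0.249). The second probe set of S100a1 gave 0.34 against both PA and NIR, with limma adjusted p of 0.0899 and 0.0645 over all probe sets. S100a13 differed by 0.25 between IR and NIR (SE 0.074, 95% interval 0.092 to 0.42, limma adjusted p = 0.112) and by 0.23 between IR and PA (0.068 to 0.39, adjusted p = 0.299). In NIR against PA the differences were 0.096 for S100a1 and -0.024 for S100a13 (limma adjusted p = 0.756 and 0.939).

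S100a14, a member found mainly in epithelia, lies next to S100a13 and was low. It read 4.15, 4.46 and 4.11 in IR, 3.96, 4.31 and 4.10 in NIR, and 3.94, 3.86 and 3.96 in PA, all below the median of all probe sets. IR arrays lay above PA arrays, by a difference of 0.32 (95% interval 0.087 to 0.56, limma adjusted p = 0.330), and overlapped with NIR.

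**Figure D2:**
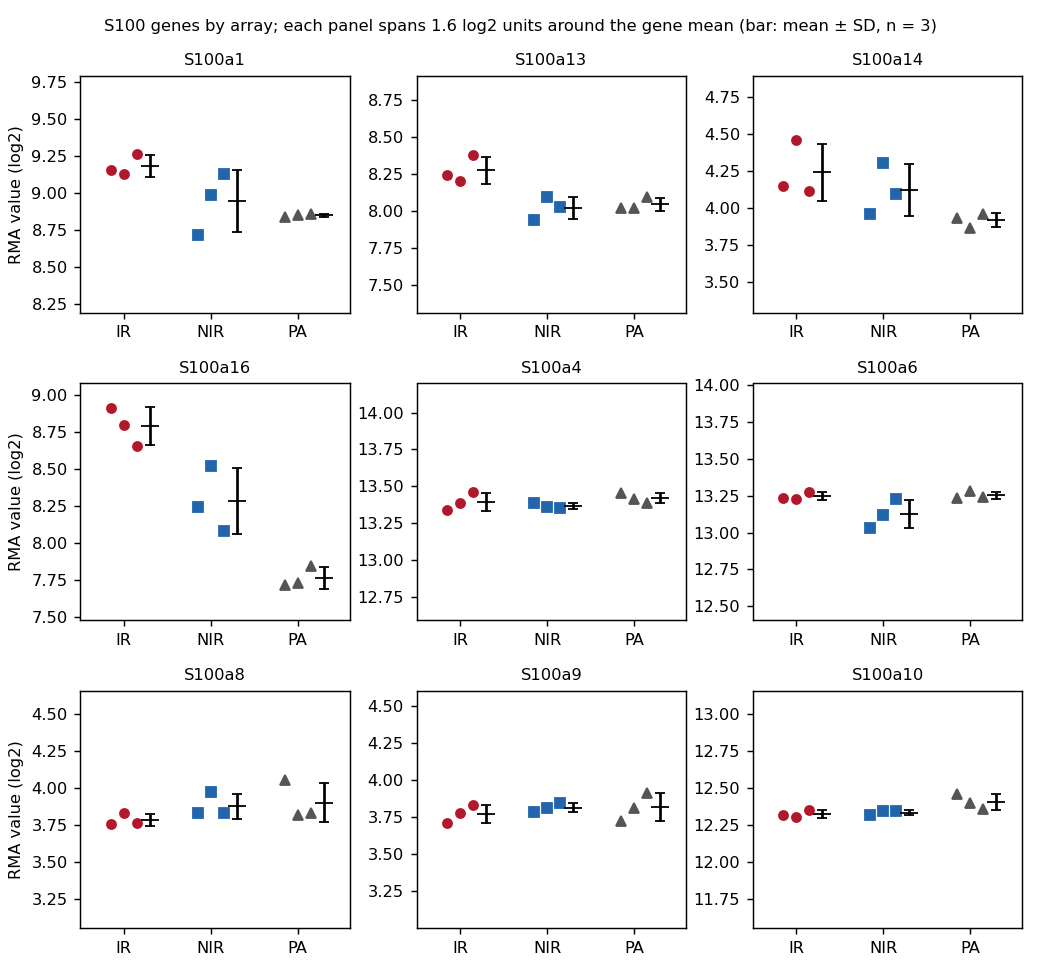
RMA expression values (log2, vertical axis) of the 9 measured S100 genes by group (horizontal axis), 1 panel per gene with the mean and SD of 3 arrays, all panels spanning the same log2 width. S100a16 steps down across IR, NIR and PA, the IR points of S100a1 and S100a13 lie above those of PA by 0.33 and 0.23 on average without passing the test, and the S100a4, S100a6 and S100a10 points lie nearly level.

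S100a4, S100a6 and S100a10 were each read by a probe set brighter than 99% of the table. S100a4, also called metastasin, binds non-muscle myosin and is widely studied in metastasis. It read 13.34, 13.39 and 13.46 in IR, 13.39, 13.36 and 13.36 in NIR, and 13.46, 13.42 and 13.39 in PA. The groups overlapped, and the difference was 0.027 between IR and NIR (95% interval -0.11 to 0.17) and -0.024 between IR and PA (-0.17 to 0.12), with limma adjusted p of 0.896 and 0.965. NIR and PA differed by -0.052 (95% interval -0.19 to 0.090, limma adjusted p = 0.813). A change of the size seen in S100a16 lies outside these intervals, on a probe set that was brighter than 99.9% of all probe sets. Whether signal is compressed at that level was not tested.

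S100a6, or calcyclin, binds the ubiquitin ligase adaptor encoded by Cacybp. It read 13.23, 13.23 and 13.28 in IR, 13.03, 13.12 and 13.22 in NIR, and 13.24, 13.28 and 13.24 in PA. NIR lay just below both other groups without overlap, by differences of 0.12 for IR minus NIR (95% interval -0.032 to 0.27, limma adjusted p = 0.448) and -0.13 for NIR minus PA (-0.28 to 0.027, adjusted p = 0.519).

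S100a10, which pairs with annexin A2 and holds plasminogen at the cell surface, has lost the ability to bind calcium. Its brightest probe set read 12.32, 12.31 and 12.35 in IR, 12.32, 12.35 and 12.34 in NIR, and 12.46, 12.40 and 12.36 in PA. PA was slightly higher than both, by differences of -0.081 for IR minus PA (95% interval -0.22 to 0.058) and -0.071 for NIR minus PA (-0.21 to 0.068), neither of which passed (limma adjusted p = 0.817 and 0.720). A second bright probe set read 11.70 to 11.92 in IR, 11.71 to 11.79 in NIR and 11.82 to 11.97 in PA, where NIR and PA did not overlap. The third, at 4.16 to 4.82 over all arrays, was low and was read for completeness only.

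S100a8 and S100a9 form calprotectin, the abundant calcium-binding complex of neutrophils and a ligand of TLR4 and RAGE. Both were low everywhere. S100a8 read 3.76, 3.83 and 3.77 in IR, 3.83, 3.98 and 3.83 in NIR, and 4.06, 3.82 and 3.83 in PA, and S100a9 lay between 3.71 and 3.92 on all arrays. The groups overlapped in both genes, and the differences ran from -0.12 to -0.0030 over the 3 comparisons (limma adjusted p from 0.650 to 0.994). The 17 neutrophil markers, these genes included, averaged 4.21 to 4.29 in IR, 4.21 to 4.27 in NIR and 4.21 to 4.28 in PA. None of the 17 passed in limma in IR minus NIR, IR minus PA or NIR minus PA. Of all genes 1.65%, 1.06% and 1.3% passed there. At an unadjusted p under 0.05 in limma there were 1, 0 and 2 of the 17, against 15.9%, 8.59% and 12.1% of all genes.

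Over the family, 0 of the 8 genes tested beside S100a16 passed between IR and NIR, where limma called 1.65% of all genes, 0.786% as higher and 0.863% as lower in IR. Between IR and PA 0 of 8 passed, against 1.06% of all genes, 0.297% as higher and 0.758% as lower. At an unadjusted p under 0.05 there were 2 of the 8 between IR and NIR, S100a1 and S100a13, against 15.9% of all genes, and 3 of the 8 between IR and PA, the same genes with S100a14, against 8.59%. Between NIR and PA 0 of the 8 passed and 0 reached an unadjusted p under 0.05 in limma, where 1.3% of all genes passed, 0.379% as higher and 0.918% as lower in NIR, and 12.1% reached that p. All IR arrays lay above all NIR arrays in 4 of the 9 genes, S100a16, S100a1, S100a13 and S100a6, where this held for 8.69% of all genes and the reverse for 9.4%. All IR arrays lay above all PA arrays in 4 of the 9, S100a16, S100a1, S100a13 and S100a14, against 7.26% of all genes, and below them in 1, S100a10, against 7.43%. Because the family was chosen for S100a16, nothing is read from these counts. NIR arrays lay above all PA arrays in 1 gene, S100a16, against 7.82% of all genes, and below them in 2, S100a6 and S100a10, against 7.73%. The median difference over the 9 genes was 0.12 for IR minus NIR, -0.0053 for IR minus PA and -0.024 for NIR minus PA.

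Along chromosome 3 the genes run in the order S100a1, S100a13, S100a14, S100a16, S100a3, S100a4, S100a5, S100a6, S100a8, S100a9, S100a7l2 and S100a10 among those measured. The first 4 hold the 4 largest differences of the 9 members between IR and PA, 0.33, 0.23, 0.32 and 1.03. From S100a4 onward the members lay between -0.12 and -0.0053. This run was seen in the values and has no test, and S100a1, S100a13 and S100a14 did not pass singly. The nearest named genes before S100a1 that were measured, Snapin and Chtop, differed by 0.14 and -0.031 between IR and PA (limma adjusted p = 0.831 and 0.962). The run was less distinct between IR and NIR. There its 4 genes differed by 0.24, 0.25, 0.12 and 0.51, S100a6 outside it by 0.12, and Snapin and Chtop by 0.19 and -0.072.

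**Figure D3:**
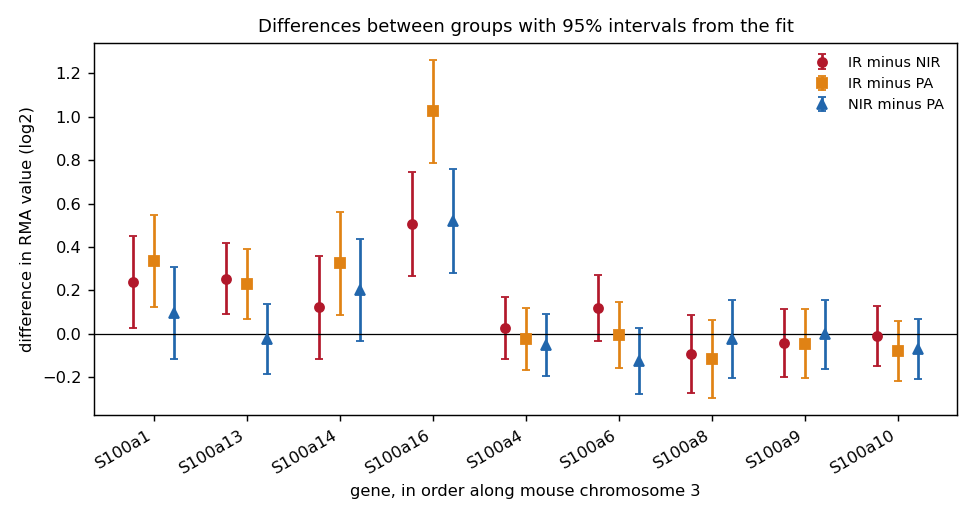
Differences in RMA value (log2, vertical axis) for IR minus NIR, IR minus PA and NIR minus PA with 95% intervals from the fit, for the 9 measured S100 genes in their order along chromosome 3 (horizontal axis). The 4 genes on the left have positive IR minus PA differences of 0.23 to 1.03, but S100a1, S100a13 and S100a14 did not pass and S100a14 was low. The intervals of S100a16 only describe values that chose the family and are not a test. In NIR minus PA the intervals of S100a1, S100a13 and S100a14 include 0, as do all intervals of the 5 genes on the right.

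The other S100 genes were low. Of 10 listed, 5 were measured, and none passed in any comparison or reached an unadjusted p under 0.05 in limma. The 2 brightest were S100a3, at 4.03 to 4.53 over the 9 arrays, and S100b, which marks glia and melanocytes, at 3.78 to 4.32. Of 7 genes of the fused type, in which an S100 domain heads a long repeat protein of the skin, 5 were measured. They were low too, the brightest being Tchhl1 and Rptn with means of 3.57 and 3.42, and none passed or reached an unadjusted p under 0.05.

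No partner of the S100 proteins passed in any of the 3 comparisons in limma. Of 28 intracellular partners 26 were measured. The brightest were Anxa2, the partner of S100a10, at 12.97 ± 0.0077 in IR, 12.92 ± 0.14 in NIR and 13.04 ± 0.055 in PA, and Anxa1, the partner of S100a11, where IR averaged 12.58 ± 0.044, NIR 12.35 ± 0.061 and PA 12.60 ± 0.019 (SD, n = 3 each). The medians of the 26 differences were 0.0086 for IR minus NIR, -0.013 for IR minus PA and 0.030 for NIR minus PA. All 12 receptors and membrane partners were measured, led by Bsg, a receptor of S100A9 in human cells, with a mean of 11.31, and Nptn with 10.01. Of 11 genes of the plasminogen system 8 were measured, led by the plasminogen receptor gene Plgrkt (8.51) and the urokinase receptor gene Plaur (7.81). Of 20 other genes of the epidermal differentiation complex on the same chromosome 13 were measured, led by Lor (8.41), which encodes loricrin, and Lce3c (7.07). In these 4 lists no gene passed in IR against NIR, IR against PA or NIR against PA. At an unadjusted p under 0.05 there were 4, 2 and 4 of the 26 partners, 2 of the 12 receptors in each comparison, 2, 1 and 1 of the 8 plasminogen genes, and 0 of the 13 complex genes. For all genes the shares at that p were 15.9% for IR minus NIR, 8.59% for IR minus PA and 12.1% for NIR minus PA. Among 26 epithelial markers 1 rose in IR, Krt18 (0.57 against NIR and 0.55 against PA), where 0.786% and 0.297% of all genes rose. None of 10 endothelial markers passed, with 1 in each comparison at an unadjusted p under 0.05 in limma. Of all genes 1.65% passed in IR minus NIR, 1.06% in IR minus PA and 1.3% in NIR minus PA.

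The genes whose levels ran most like S100a16 over the 9 arrays were taken from 401 named genes whose mean was at least the median of all probe sets and whose range reached 1 on the log2 scale. The 5 highest Pearson correlations were those of Col6a3 (0.96), a chain of collagen VI, Lrrc17 (0.94), a secreted leucine-rich repeat protein, Ccn4 (0.89), a matricellular protein, Itgb5 (0.89), an integrin subunit, and Col6a1 (0.88), another collagen VI chain. The points share group means, and the correlations are a description with no test. Col6a3 read 7.36, 7.40 and 7.34 in IR, 6.60, 7.13 and 6.78 in NIR, and 5.76, 5.85 and 5.73 in PA. Like S100a16, Col6a3 had NIR2 as its highest NIR array, as did Ccn4, Itgb5 and Col6a1, but not Lrrc17. NIR2 was also the highest NIR array in lists not picked by likeness, such as the mean of the 26 intracellular partners (8.55). Opposite profiles were those of Smox (-0.93), the spermine oxidase gene, Gstm2 (-0.91), a glutathione transferase gene, and Oasl1 (-0.90), an interferon-induced gene. Smox read 5.55, 5.41 and 5.55 in IR, 5.72, 6.08 and 6.32 in NIR, and 7.08, 7.37 and 6.85 in PA.

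**Figure D4:**
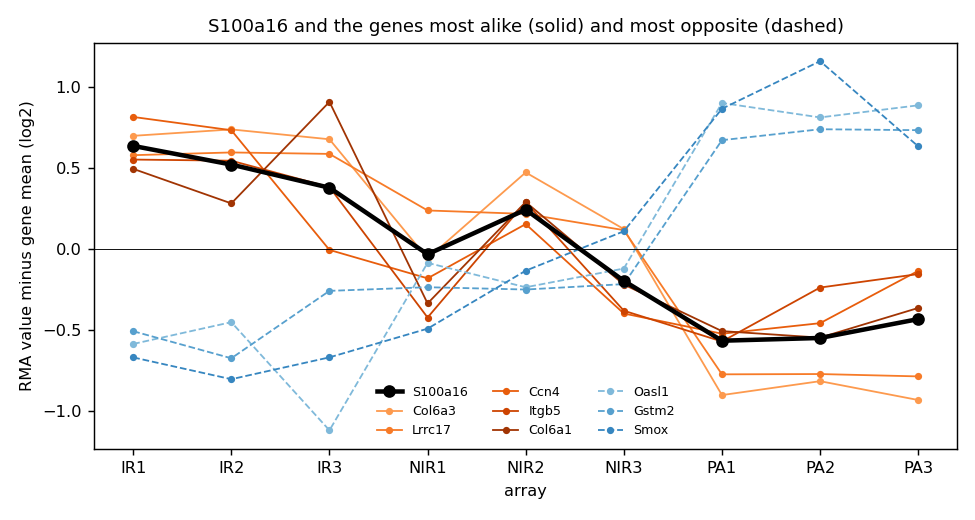
RMA value minus the mean of the gene over the 9 arrays (log2, vertical axis) by array (horizontal axis) for S100a16, the 5 genes most alike (solid) and the 3 most opposite (dashed); lines only join the points of a gene. NIR2 is the highest NIR point of S100a16 and of the solid genes except Lrrc17, and the dashed genes are highest in PA.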

How the data were processed

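The values analysed are log2 RMA expression values deposited by the authors, 1 column for each of 9 arrays. RMA is named per the submitters' processing notes, and its version and settings are not given in the sources used here. The table held 45100 probe sets, of which the platform annotation gives 1 gene for 34944, more than 1 for 932 and no gene for 9160, besides 64 controls. Current symbols came from a RefSeq table (GRCm38.p6) by Entrez ID, with a match for 34740 probe sets. Each of 18194 genes was read by the probe set with the highest mean, a choice among several for 9009 of them.

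All 9 arrays entered 1 fit in limma 3.58.1 (under R 4.3.3, by lmFit with group means as the only terms, then eBayes). Tests were 2-sided, and the degrees of freedom were 6 residual and 5.48 prior. Benjamini-Hochberg adjustment ran over all genes, with a threshold of 0.05. No further scaling was applied. On simulated data of 18194 genes the fit recovered, of 67 changes of 0.5 (log2), 59 for IR minus NIR, 56 for IR minus PA and 57 for NIR minus PA, and it recovered all changes of 1 or 2. In the real fit not all differences above 0.5 passed. Lyz1 differed by 1.25 between IR and NIR (limma adjusted p = 0.206) and Ccn4 by 0.88 between IR and PA (0.0759). Others passed, such as Col6a3 at 0.52 between IR and NIR. The simulated noise was normal, with gene spreads that eBayes had already drawn towards a common value. The simulated shares may thus be too high and need not hold for every gene. The largest difference of an S100 gene tested beside S100a16 was 0.33, for S100a1 between IR and PA. No change that small was simulated, so its recovery is not known. The precision is limited by the number of arrays.

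The S100 genes and the lists of other S100 genes, fused-type genes, partners, receptors, plasminogen genes, epidermal differentiation genes and markers of epithelium, neutrophils, macrophages, fibroblasts and endothelium were chosen with earlier results of these data known. S100a16 was left out of the tests, also of the planned one between NIR and PA, because its values on these arrays chose the family. The text names every S100 gene with a probe set, called members of a list or else its 2 brightest, leading markers, and the 5 genes most like and 3 most unlike S100a16. Alternatives were averaging all probe sets per gene, every probe set, a filter on signal, median centring, a second quantile normalization, trend and robust settings, a fit of only 2 groups, a block for the replicate number, and leaving out each array. Plots came from Python 3.11.15 with matplotlib 3.10.9.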

Additional observations from a re-analysis of the deposited data

How the results depend on the processing

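The fits without any single array and the 8 other settings, the replicate block among them, gave 0 of the S100 genes tested beside S100a16 passing in each of the 3 comparisons. Same-numbered arrays did not deviate together, with correlations of -0.20 to 0.097, so the numbers were not taken as pairs. The S100a16 difference ran from 0.41 to 0.62 for IR minus NIR, from 0.96 to 1.09 for IR minus PA and from 0.40 to 0.62 for NIR minus PA without single arrays, and the second probe set moved the first to 0.35. S100a10 changed sign between IR and NIR with its second bright probe set (0.059), and between NIR and PA with the mean of its probe sets (0.0019) and with its low one (0.22), none of which passed, and the cause was not tested. Of 462 values of single genes under these settings 458 kept their direction and side of the threshold or moved by less than their error. S100a16, without a threshold, was judged by its direction and by the SD within groups. Among the 458, 14 changed sign without a call. Several settings, such as the replicate block and the filter on signal, leave the log2 difference as it is. No tested member had passed, so this count says little. The filter on signal gave no value for S100a8, S100a9 and S100a14. Probe set signal near the median of all probe sets limits what can be said of these 3 genes.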
